A study of Homo sapiens with 3 samples.

Results

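Pseudouridine synthases convert uridine in RNA to pseudouridine, an isomer in which the base is joined to the sugar by a carbon bond. The 9 genes described here, PUS1, PUS3, PUSL1, PUS7, PUS7L, TRUB1, TRUB2, DKC1 and PUS10, were selected by a list of symbols, with no threshold on a measured value. All 9 were listed among the 35880 gene symbols of the table, with 59 of its 185299 transcripts. The samples were 3 libraries of untreated HEK293T cells, an established human embryonic kidney line with a stably introduced SV40 large T antigen gene. Cells grew in high-glucose DMEM with 10% FBS to 70% confluence, and their Trizol-extracted RNA was captured on oligo-dT. The 3 libraries formed 1 group, with no second genotype, treatment or time, so the comparisons possible were of each gene with a fixed level, of genes with each other and of the transcripts within a gene.

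Most of these enzymes act alone and recognise the sequence and fold of their substrate. PUS1, PUS3 and PUSL1 belong to the TruA family, PUS7 and PUS7L to the TruD family, TRUB1, TRUB2 and DKC1 to the TruB family, and PUS10 forms a family of its own. DKC1 encodes dyskerin, the exception: it is guided to ribosomal and spliceosomal RNA by box H/ACA RNAs, and it is also a component of telomerase. Pseudouridine is found in transfer, ribosomal, spliceosomal and messenger RNA, and some of the enzymes work in mitochondria.

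Levels were read in TPM (transcript abundance scaled by transcript length and to the same total in every library), so that genes can be compared with each other. The authors' column of estimated counts summed to 33184885 and gave 10394 for DKC1 and 255 for PUS10. The column names no library, but once scaled by length to TPM it matched replicate 1. How deeply each library was sequenced is not given in the sources used here. Sample descriptions call the libraries biological replicates without naming separate cultures. The p-values therefore reflect only how far these 3 libraries differed, and that spread may be technical. All 5 markers listed for HEK293T (VIM, NEFL, NEFM, INA and LIN28B) were above 1 TPM, with a summed level of 604 to 621 TPM. Of all protein-coding genes tested, 70.7% were also called above 1 TPM. Among the markers of blood, endothelium, fibroblasts and differentiated kidney reported here, 3 were listed at 0 (CD3E, UMOD and AQP2) and 8 were below 1 TPM.

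Sequences are shown for PUS1 and TRUB2, because the deposited values of these 2 genes divided between transcripts that differ in their annotated coding sequence. The first pair shows the starts of the PUS1 coding sequence. The long form begins at chr12:131929723 on the plus strand, the short form at chr12:131929917, and the long form holds 84 more coding bases, or 28 codons, split over 2 exons. Capitals mark the ATG codons, 5′ to 3′, and the second capital ATG of the long form is the first of the short form. As background, the added stretch carries the mitochondrial targeting signal, and the short form is nuclear.
PUS1 long start: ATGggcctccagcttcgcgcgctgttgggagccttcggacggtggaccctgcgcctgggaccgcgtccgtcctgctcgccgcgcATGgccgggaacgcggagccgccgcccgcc
PUS1 short start: ATGgccgggaacgcggagccgccgcccgcc

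The next sequence is the exon that separates the main noncoding transcript of TRUB2 from its coding transcript. It spans chr9:128315822-128315896 on the minus strand and has 75 bases. Read in the frame of the coding transcript it holds the stop codon TAG, in capitals, from base 36 of the exon, after 117 codons against 331 in the full reading frame.
TRUB2-202 extra exon: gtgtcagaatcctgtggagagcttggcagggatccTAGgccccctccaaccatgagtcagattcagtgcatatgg
All 3 sequences and their positions come from the GENCODE release 29 transcripts on hg38, with which all 59 transcripts of the 9 genes matched in name and length.

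The genes lie on 8 chromosomes in that release (hg38). On the plus strand are PUS1 at chr12:131929200-131945896, PUSL1 at chr1:1308567-1311677, TRUB1 at chr10:114938193-114977676 and DKC1 at chrX:154762742-154777689. On the minus strand are PUS3 at chr11:125893485-125903221, PUS7 at chr7:105439661-105522267, PUS7L at chr12:43718993-43758817, TRUB2 at chr9:128305161-128322742 and PUS10 at chr2:60940222-61018259.

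All 9 synthases were expressed, over a range from 5.66 TPM for PUS10 to 210 TPM for DKC1. Each was called above 1 TPM by limma's one-sample test with Benjamini-Hochberg adjustment over all genes tested, with adjusted p from 2.35e-09 for TRUB2 to 2.30e-06 for PUS10. The same call was made for 58.5% of the 21990 genes tested and for 70.7% of the 17225 protein-coding genes tested. The median of the 9 genes was 40.6 TPM, against 6.25 TPM over 19802 protein-coding genes and 4.29 TPM over all genes tested. Together they made up 529 to 548 TPM per library, of which DKC1 alone was 38.0% to 39.9%.

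**Figure D1:**
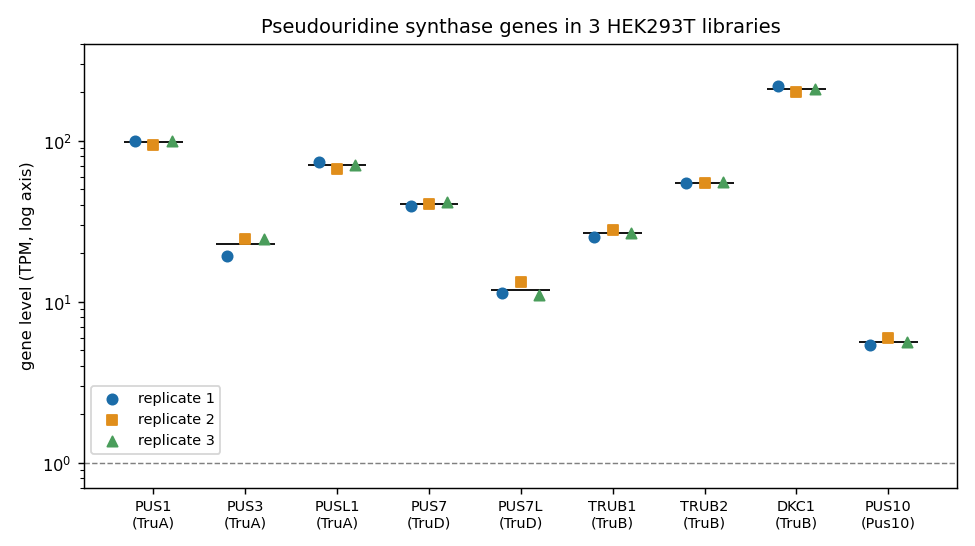
Gene level of each pseudouridine synthase in TPM on a log axis, by gene and enzyme family. Points are the 3 libraries, black bars their mean, and the dashed line is 1 TPM. DKC1 is highest at 210 TPM, PUS10 is lowest at 5.66 TPM, and no pair of genes overlaps.

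DKC1, the catalytic subunit of the H/ACA particle, measured 219, 201 and 209 TPM in replicates 1, 2 and 3. Its 3 values were above those of every other synthase, at 210 TPM ± 8.74 (SD, n = 3). That mean lay 7.70 ± 0.03 (SE) log2 units above 1 TPM (limma, adjusted p = 3.49e-09), and 96.6% of protein-coding genes were lower. Next came the TruA enzymes PUS1 and PUSL1. PUS1, which modifies transfer RNA and other RNAs in nucleus and mitochondria and is mutated in a myopathy with lactic acidosis and sideroblastic anaemia, measured 100, 94.3 and 100 TPM. Its mean of 98.2 TPM ± 3.40 (SD, n = 3) was 6.60 ± 0.02 (SE) log2 units above 1 TPM (limma, adjusted p = 4.24e-09). PUSL1, a less studied relative of PUS1, measured 73.9, 66.6 and 70.9 TPM, a mean of 70.5 ± 3.65 (SD, n = 3). Both genes stood clear of their neighbours in the order, PUS1 by a ratio of 1.39 ± 0.03 (SD over 3 libraries) to PUSL1.

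TRUB2, the mitochondrial TruB enzyme, varied least: it measured 55.0, 54.9 and 55.2 TPM, a coefficient of variation of 0.225%. TRUB1, which makes the pseudouridine of the T loop of transfer RNA and also modifies messenger RNA, measured 25.3, 27.8 and 26.8 TPM, a mean of 26.6 ± 1.24 (SD, n = 3). By gene total the 3 genes of the TruB family were thus ordered DKC1, TRUB2 and TRUB1 in every library. DKC1 was 3.81 ± 0.16 times TRUB2 and 7.90 ± 0.70 times TRUB1, and TRUB2 was 2.07 ± 0.10 times TRUB1 (mean ± SD of the ratio within a library, n = 3). On protein-coding transcripts alone the order of TRUB2 and TRUB1 turned in every library. TRUB2 then measured 11.7, 12.1 and 11.8 TPM, and TRUB1 24.0, 24.7 and 24.6 TPM.

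PUS7, which modifies transfer RNA and messenger RNA at a short sequence motif, measured 39.3, 40.7 and 41.6 TPM, a mean of 40.6 ± 1.18 (SD, n = 3). Its paralog PUS7L measured 11.3, 13.4 and 11.1 TPM, so that the TruD pair did not overlap and differed by a ratio of 3.43 ± 0.36. PUS3, the TruA enzyme of the anticodon arm of transfer RNA, measured 19.4, 24.6 and 24.5 TPM. Replicate 1 was the low value, and PUS3 had the largest coefficient of variation of the 9 genes, 13.0%. PUS10, which acts on transfer RNA and has been linked to microRNA processing, was the lowest with 5.37, 5.97 and 5.64 TPM. It was still 2.49 ± 0.06 (SE) log2 units above 1 TPM (limma, adjusted p = 2.30e-06), while 49.0% of protein-coding genes were lower.

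The 3 libraries of each gene did not overlap with those of any other in 36 of 36 pairs. Among all pairs of genes of at least 1 TPM, 95.0% were apart in this way, so the full separation is near that background. An exact permutation test of 3 libraries against 3 cannot go below p = 0.1. The closest neighbours were TRUB1 and PUS3, whose ratio was 1.30, 1.13 and 1.09 in replicates 1, 2 and 3. The widest steps between neighbours were DKC1 over PUS1, by a ratio of 2.14 ± 0.05, and PUS7L over PUS10, by 2.10 ± 0.14. In replicate spread 5 of the 9 genes had a larger and 4 a smaller coefficient of variation than the median of 4.54% over 13475 genes of at least 1 TPM.

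The gene totals hide different mixtures of transcripts. Of the 59 transcripts, 54 were above 0 in at least 1 library and were tested. By limma with adjustment over all transcripts, 35 were above 1 TPM, a call made for 30.8% of the 122057 transcripts tested, and 2 were below it, against 25.1% of all. The other 17 tested transcripts were undecided and 5 were listed at 0. Those called above 1 TPM were 19 of 36 annotated as protein coding, 8 of 10 with a retained intron, 6 of 7 processed transcripts (spliced RNAs with no annotated reading frame) and 2 of 5 marked for nonsense-mediated decay. By gene they ranged from 9 of 13 transcripts of DKC1 and 5 of 5 of PUSL1 to 2 of 8 of PUS7L. These counts are out of all listed transcripts, and the same share by type over all genes was not computed. Of the 5 listed at 0, 4 were protein coding and 1 was marked for nonsense-mediated decay.

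**Figure D2:**
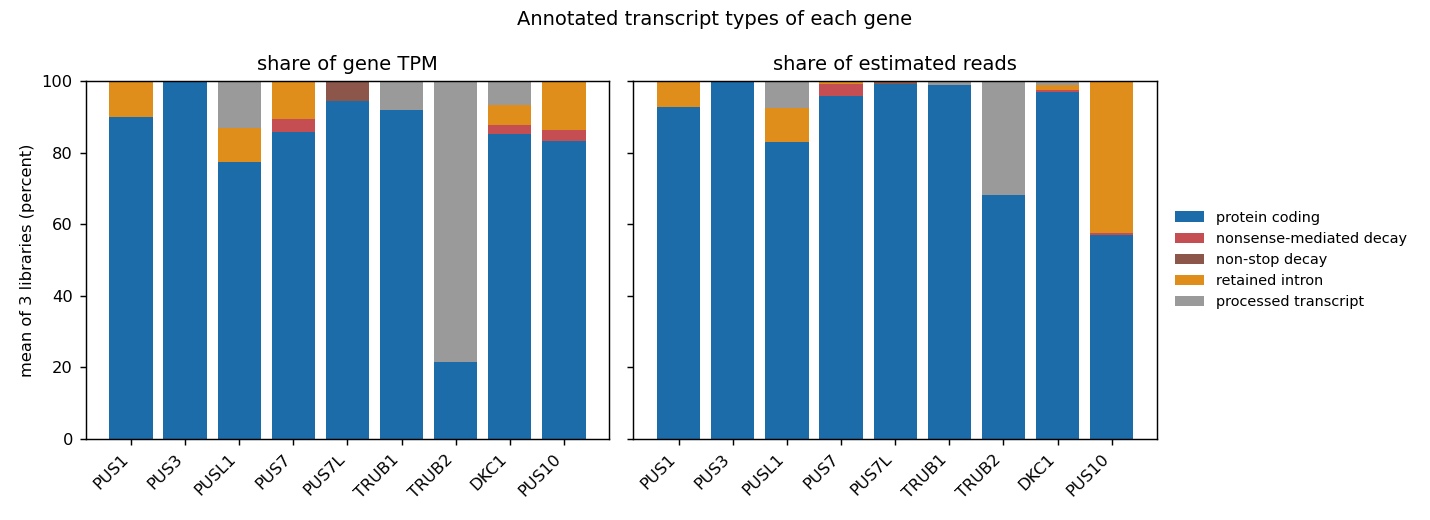
Share of each gene held by transcripts of each annotated type, in percent, as the mean of 3 libraries: on the left as shares of TPM (molecules), on the right as shares of estimated reads (TPM times effective length). TRUB2 is 21.5% protein coding by TPM and 68.1% by reads, and the retained-intron share of PUS10 is 13.7% by TPM and 42.4% by reads.

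TRUB2 was the one gene of the 9 in which protein-coding transcripts held less than 77.5% of TPM. TRUB2-202, the processed transcript with the extra exon printed above, measured 42.0, 41.6 and 41.8 TPM, or 76.0% ± 0.37 of the gene (SD, n = 3). The coding transcript TRUB2-201 measured 11.7, 12.1 and 11.8 TPM, or 21.5% ± 0.45. The noncoding transcript exceeded the coding one in each library, by a ratio of 3.53 ± 0.09. The transcripts differ much in length, 933 against 5719 bases. Counted as estimated reads, TRUB2-201 therefore held the larger part, 68.1% ± 0.55, and TRUB2-202 held 31.4% ± 0.51.

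The extra exon distinguishes TRUB2-202 from the other annotated transcripts: 104 of its 903 words of 31 bases occur in it alone, while 4040 of the 5658 words of TRUB2-201 occur only there. Over the whole gene, 13.4% of words also occur in transcripts of other genes. Without TRUB2-202 the gene measured 13.0, 13.3 and 13.4 TPM. On protein-coding transcripts alone TRUB2 dropped from rank 4 to rank 7 of the 9 genes, at 11.9 TPM ± 0.23 (SD, n = 3), and overlapped with PUS7L at 11.2 TPM ± 0.56. TRUB1 and PUS3 then also overlapped, and the other 34 pairs were apart, though not all in the same order. TRUB2 was then below PUS7, TRUB1 and PUS3, which it exceeded by gene total. The low spread of the TRUB2 total, 0.225%, compares with 1.58% without TRUB2-202.

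**Figure D3:**
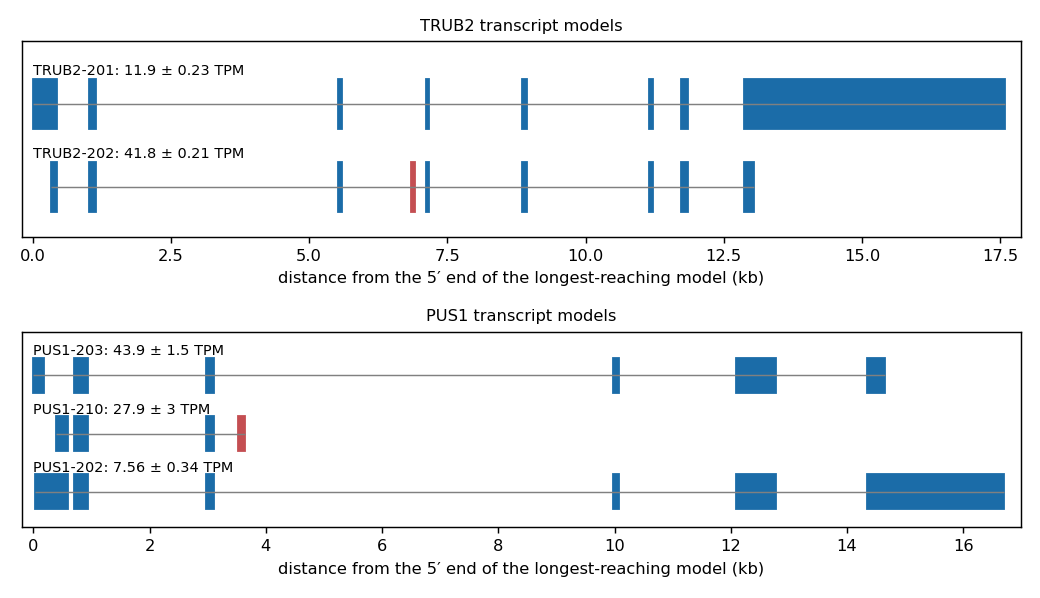
Exons (boxes) and introns (lines) of the main TRUB2 and PUS1 transcripts, to scale, by distance in kb from the 5′ end of the drawn model that starts first; red boxes overlap no exon of the other models drawn. The numbers are mean TPM ± SD of 3 libraries: TRUB2-202, with its internal red exon, is at 41.8 TPM and TRUB2-201 at 11.9 TPM.

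PUS1 was mostly protein coding, 89.9% of TPM, and its coding transcripts included models with each of the starts printed above. Use of a start codon was not measured. PUS1-203, which begins at the short start and has 1197 coding bases, was the main transcript with 43.3, 42.6 and 45.6 TPM. PUS1-202, the full-length form from the long start with 1281 coding bases, measured 7.17, 7.70 and 7.79 TPM; it was chosen for description after its values were seen. Between these complete forms the short start exceeded the long one by a ratio of 5.81 ± 0.26 (SD, n = 3), with no overlap. PUS1-202 is the longer of the pair, and by estimated reads the ratio was 2.17 ± 0.10.

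The second PUS1 transcript was PUS1-210, with 30.9, 24.9 and 27.999 TPM. It has 687 bases, carries the long start, is annotated as incomplete, and holds 0 words of 31 bases of its own. Counting it, the 2 transcripts with the long start summed to 35.5 TPM ± 2.79, or 36.1% ± 1.78 of PUS1. The 6 with the short start summed to 47.2 TPM ± 1.96, or 48.1% ± 1.53 (SD, n = 3). As estimated reads these shares were 33.2% ± 0.20 and 51.0% ± 0.79. The short start was thus ahead in each count, while the size of its lead differed with whether PUS1-210 was included and with whether TPM or reads were counted. A further coding transcript, PUS1-208, begins downstream of both starts and held 5.68% ± 0.04 of TPM.

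DKC1 was dominated by 1 message. DKC1-201, with the full coding sequence of 514 codons, measured 175, 172 and 174 TPM, or 82.9% ± 2.70 of TPM and 94.5% ± 0.06 of estimated reads. Its coefficient of variation, 0.904%, was smaller than the 4.17% of the gene total. The second transcript, DKC1-212, is a processed transcript of 406 bases and measured 15.9, 2.10 and 7.002 TPM. Its high value in replicate 1 and low value in replicate 2 follow the order of the gene totals. Without it the gene measured 203, 199 and 202 TPM, a coefficient of variation of 0.975%.

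DKC1-212 begins at chrX:154775119, inside the annotated box H/ACA RNA gene SNORA56, which lies in a DKC1 intron, and it has 0 words of 31 bases of its own. Exons of DKC1 overlapped the small RNA genes SNORA36A, SNORA56 and MIR664B on the same strand over 5.85% of their bases. DKC1-213, named after its values were seen, keeps the intron that holds SNORA56 and measured 2.92, 4.22 and 3.66 TPM. The part of this overlap in the level of DKC1-212 was not tested.

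PUSL1 and TRUB1 each had 1 leading coding transcript. PUSL1-201 measured 51.6, 50.4 and 50.4 TPM, or 72.2% ± 3.11 of the gene. The noncoding PUSL1-204 followed with 11.04, 7.37 and 9.60 TPM, lower by a ratio of 5.59 ± 1.12. Exons of PUSL1 overlapped those of ACAP3 and INTS11 on the opposite strand over 10.5% of their bases, the largest such overlap of the 9 genes. The libraries were directional, but the strand setting of the quantification was not given in the sources used here, so reads of these neighbours cannot be told apart from those of PUSL1 in that stretch. TRUB1-201 measured 24.0, 24.7 and 24.6 TPM, or 91.8% ± 2.80 of TRUB1, and TRUB1-202, a processed transcript, measured 1.36, 3.04 and 2.21 TPM.

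In PUS3, PUS7, PUS7L and PUS10 the full coding sequence was shared by 2 or 3 transcripts, which differ only outside it. The main transcript of PUS7L was the same in every library, while those of PUS3, PUS7 and PUS10 were not. PUS7-201 measured 17.0, 18.4 and 16.9 TPM and PUS7-202 measured 16.4, 16.02 and 18.1 TPM, a ratio of 1.04 ± 0.11. PUS7-202 was the higher of the pair in replicate 3 alone. All 2326 words of PUS7-202 occur in other transcripts, whereas PUS7-201 has 1177 of its own. The sum of the pair, all coding for the same 661 codons, was 33.4, 34.4 and 35.0 TPM. Its coefficient of variation was 2.32%, against 4.89% and 6.51% for the transcripts apart. Here and in the genes below, a sum can vary less than its parts when these vary independently. A link between the transcripts was not tested.

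PUS3 varied most at this level. PUS3-201 measured 11.002, 12.5 and 6.26 TPM and PUS3-203, with the same 481 codons, measured 3.88, 0.110 and 4.43 TPM. Their sum was 14.9, 12.6 and 10.7 TPM, a coefficient of variation of 16.5% against 32.7% and 83.8% apart. PUS3-204, an incomplete model of 605 bases, was listed at 4.82e-08 TPM in replicate 1 and at 5.16 and 6.79 TPM in replicates 2 and 3. PUS3-205 lacks the exon with the usual start codon, has 819 coding bases and measured 3.39, 5.43 and 5.56 TPM. The low PUS3 total of replicate 1 thus coincided with low values of PUS3-204 and PUS3-205, not of the full-length coding sequence, whose sum was highest there.

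PUS7L-201, of 13593 bases, measured 5.002, 5.46 and 5.01 TPM, PUS7L-202 measured 3.17, 2.57 and 3.74 TPM, and PUS7L-207 measured 1.82, 0.982 and 1.56 TPM. The longest transcript was highest in every library. The transcripts share a coding sequence of 701 codons, and their sum was 9.98, 9.02 and 10.3 TPM. Unlike in PUS3, PUS7 and PUS10, the coefficient of variation of the sum, 6.86%, was not below that of every transcript, which ran from 5.10% to 29.4%. In replicate 2, where the gene total was highest, this sum was lowest and made up 67.5% of the gene, against up to 92.9% elsewhere.

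PUS10-203 measured 2.36, 2.35 and 1.46 TPM, and PUS10-202, with a reading frame of only 186 bases, measured 1.75, 1.95 and 1.71 TPM. PUS10-202 was ahead in replicate 3. PUS10-201, named after its values were seen, shares the 529 codons of PUS10-203 and measured 0.377, 0.293 and 0.984 TPM. The sum of the full-length pair was 2.73, 2.64 and 2.45 TPM, a coefficient of variation of 5.62% against 25.02% and 68.4% apart. It made up 46.1% ± 4.08 of PUS10 (SD, n = 3).

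The retained-intron transcript PUS10-206, of 6366 bases, measured 0.704, 0.877 and 0.743 TPM and was not called on either side of 1 TPM (limma, adjusted p = 0.174). It held 13.7% ± 0.90 of PUS10 by TPM and 42.4% ± 2.50 by estimated reads, where it was the largest. Of its 6336 words of 31 bases, 4146 occur in it alone. The 3 transcripts that begin at or near chr2:61017193 held 71.3% ± 8.01 of TPM, and the 2 that begin at or near chr2:61018259, upstream on the minus strand, held 23.4% ± 6.22. By estimated reads the order of the means turned, with 46.4% ± 6.97 and 52.7% ± 6.61. In replicate 1 the order did not turn, and the ranges of the 3 libraries overlapped.

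**Figure D4:**
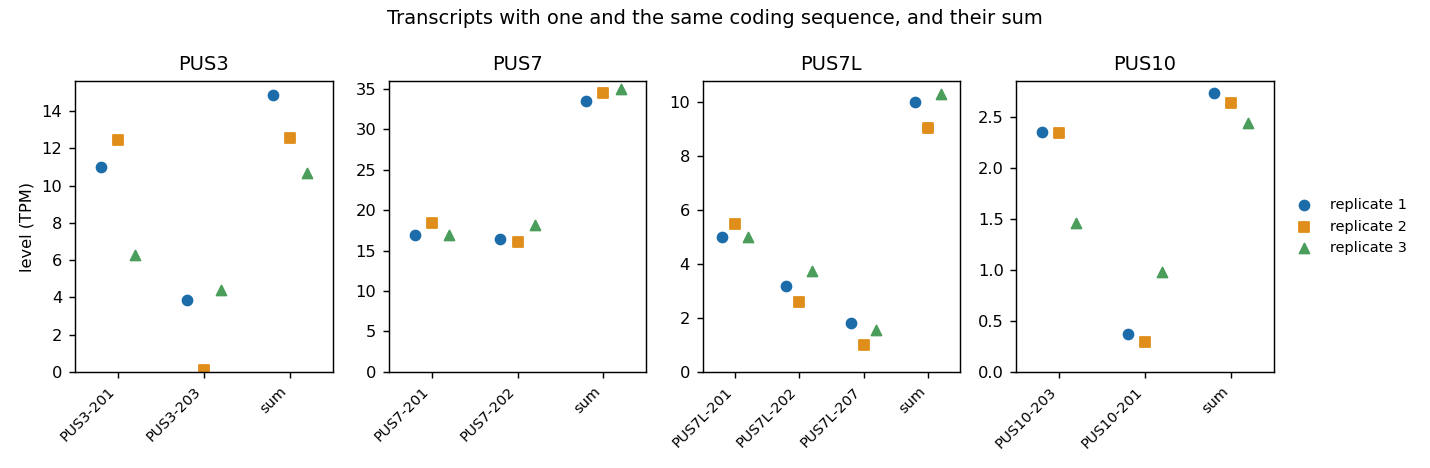
Level in TPM of the transcripts that share the full coding sequence of PUS3, PUS7, PUS7L and PUS10, and of their sum; points are the 3 libraries. The PUS3 and PUS10 points are closer together, relative to their level, in the sum than in the transcripts: the coefficient of variation is 16.5% in the PUS3 sum and 5.62% in the PUS10 sum.

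Across the 9 genes, 6 had the same main transcript by TPM in all 3 libraries with no overlap with the next, as did 82.5% of the 10081 genes of at least 5 TPM. By estimated reads all 9 genes did, against 88.5% of those 10081 genes. The exceptions by TPM, PUS3, PUS7 and PUS10, changed their main transcript in replicate 3, and without that library the count was 9; a gene steady over 3 libraries stays so over 2, so leaving one out could not lower it. Among the transcripts of at least 1 TPM, the 7 with no word of their own had a median coefficient of variation of 32.7%, and the 37 with at least 1 such word had 13.5%. The ranges overlapped, from 6.51% to 89.0% and from 0.504% to 97.4%, and the part of shared sequence in the spread was not tested.

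The genes that work beside the synthases were measured in the same libraries. All 6 partners of DKC1 in the H/ACA particle and its assembly were above 1 TPM, a call made for 58.5% of all genes tested and 70.7% of protein-coding ones, with a median of 80.7 TPM against 4.29 TPM over all genes tested. NHP2, a core protein of the particle, was highest with 649, 656 and 639 TPM, or 3.10 ± 0.15 times DKC1 (SD, n = 3). WRAP53, which brings H/ACA RNAs to Cajal bodies, was lowest with 37.8, 34.8 and 36.04 TPM. The other core proteins, NOP10 and GAR1, were named after their values were seen: NOP10 was 1.13 ± 0.05 times and GAR1 was 0.534 ± 0.03 times DKC1. In RNA, the gene totals of the 4 core proteins therefore did not stand at 1 level, NHP2 being above and GAR1 below DKC1 in every library. Among all pairs of genes of at least 1 TPM, 95.0% were likewise apart. Coding transcripts alone were not summed for the partners. Protein was not measured.

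The RluA-type synthases RPUSD1 to RPUSD4 are a further family of human pseudouridine synthases, some of which act on mitochondrial RNA. All 4 were above 1 TPM, against the same background of 58.5% of all genes and 70.7% of protein-coding genes, with a median of 63.5 TPM. RPUSD3 was highest with 117, 114 and 114 TPM, and RPUSD2 was lowest with 21.6, 19.6 and 18.2 TPM. The 3 genes NGRN, FASTKD2 and RCC1L, which act with TRUB2 and RPUSD enzymes at the RNA granules of mitochondria, were also all above 1 TPM, where 70.7% of protein-coding genes stood, with a median of 63.7 TPM. They lay between 72.6 TPM ± 1.66 for NGRN and 26.3 TPM ± 0.66 for FASTKD2, on either side of the TRUB2 gene total. Coding transcripts alone were not summed for these 3 genes.

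**Figure D5:**
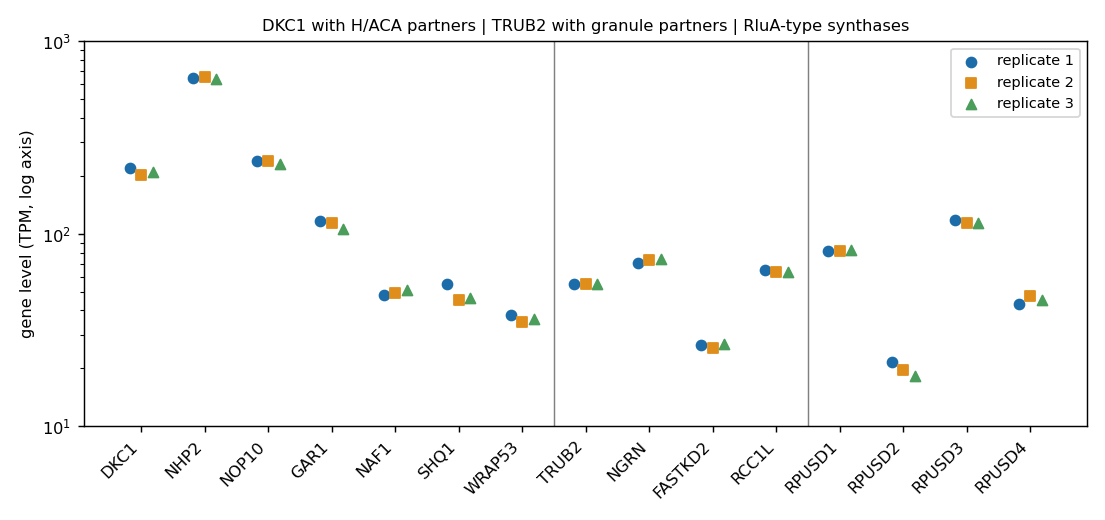
Gene level in TPM on a log axis of DKC1 with its 6 H/ACA partners, TRUB2 with 3 partners at mitochondrial RNA granules, and the 4 RluA-type synthases; points are the 3 libraries. NHP2, at 639 to 656 TPM, is above DKC1 in every library, and RPUSD2 is the lowest gene drawn.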

How the data were processed

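RNA of 3 HEK293T libraries was quantified per transcript by the authors with kallisto on hg38, per the submitters' processing notes; the version and transcript release are not given in the sources used here. Per the file headers, the authors' table has 1 TPM column per replicate. It also holds 1 effective length and 1 estimated count per transcript, and the deposited estimated counts name no library. Once divided by that length and scaled to TPM, these counts matched replicate 1 to within 1.43e-05 of each value above 0.01 TPM. The single effective length was used for all libraries.

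TPM was summed by gene symbol. Estimated reads were TPM times effective length, used only as shares within a gene. Levels were tested with limma 3.58.1 in R 4.3.3 (one-sample, mean-variance trend) on log2(TPM + 0.01) against 1 TPM, with Benjamini-Hochberg adjustment at 0.05 over features above 0 in at least 1 library. Log2 differences are on that scale, which understates those of low genes. Their SE is limma's moderated value, which draws on the spread of all genes tested, not on that gene alone. The test was checked on simulated data. Types, exons and sequences came from GENCODE release 29, which may not be the authors' release: 90.1% of transcripts matched it by identifier. Words of 31 bases were compared between those of its transcripts that matched, without their reverse complements.

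The list of symbols used no measured value as a criterion, but it, the other lists and the rules were drawn up with earlier results of these data known. For each member the text names the 2 transcripts of highest mean TPM and those with a mean share of at least 10%, and for each list the highest and lowest gene. Alternatives were other pseudocounts, levels, filters and scalings, coding transcripts alone, shares of reads, and each replicate left out. Precision rests on 3 libraries, since TPM keeps no depth. Of the cell type markers, 1 is not reported here.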

Additional observations from a re-analysis of the deposited data

How the results depend on the processing

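All 9 synthases were above 1 TPM under each alternative run: pseudocounts of 0.1 and 1, levels of 0.5 and 2 TPM, a minimum mean of 0.1 TPM, TMM scaling with edgeR 4.0.16, rescaling without mitochondrially encoded genes, and each replicate left out. The count of their transcripts above 1 TPM was 35, and it was 40 at a level of 0.5 TPM, 24 at 2 TPM and 28 to 29 with a replicate left out. The 36 separate pairs fell to 34 on protein-coding transcripts, a count that does not register a change of order. TRUB2 was then below PUS7, TRUB1 and PUS3, which it exceeded by gene total. Leaving out a replicate cannot join values that are apart, so it is no check of the count of separate pairs. The 6 genes with a steady main transcript became 9 by estimated reads. With a replicate left out they numbered 6 to 9, a count that could not fall. The alternatives without DKC1-212 or TRUB2-202, and the coding share of TRUB2 by reads, were chosen after seeing the data. The coding share of TRUB2 was 21.5% of TPM and 68.1% of estimated reads. Its gene level of 55.1 TPM was 11.9 TPM on protein-coding transcripts alone and 13.2 TPM without TRUB2-202. Of 56 recomputed gene levels, 15 moved by more than 1 SD, 7 of them on rescaling without mitochondrially encoded genes. Leaving out 1 of 3 replicates cannot move a mean that far. No paired analysis was possible because the libraries form 1 group.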
